A study of Mus musculus with 8 samples.

Results

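The lysyl oxidases, fibulins and elastic fibre genes were followed in epididymal white adipose tissue (fat of the pad next to the testis) of male mice deficient in LPA4. This receptor of the G protein-coupled family senses lysophosphatidic acid, a signalling lipid, and its gene is Lpar4. The set was given as 10 genes: Lox, Loxl1, Loxl2, Loxl3, Fbln1, Fbln2, Fbln5, Eln, Fbn1 and Efemp2. Array values of Fbn1 and Efemp2 were not analysed here. Every probe set that the platform annotation assigns to the other genes was taken, whatever its values. The genes themselves were chosen with earlier results of these data known. Of 18193 genes with a probe set of their own on the array, 7 were members, with 15 probe sets. The 2 probe sets listed for Loxl2 are listed for Gm21451 as well, so their values belong to neither gene alone. The arrays came from 4 LPA4-KO mice (Lpar4 -/Y, the deficient allele on the only X chromosome) and 4 wild-type (WT) mice, 1 array per mouse. All were male littermates on a C57BL/6 background, aged 12 weeks and fed standard chow. How the deficient allele was made is not given in the sources used here.

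Elastic fibres give tissues their recoil. They consist of a core of elastin, encoded by Eln, laid down on a scaffold of fibrillin microfibrils. Fibulins such as fibulin-5 bring tropoelastin and lysyl oxidases to the scaffold, and the lysyl oxidases then oxidise lysines of elastin and collagen so that the chains become cross-linked. In fat, the matrix around each adipocyte is made largely by fibroblast-like progenitors and other stromal cells.

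Values are given as deposited, in log2 units. A group mean carries its SD (n = 4), and a difference, always LPA4-KO minus WT, carries its SE. Genes were called where limma's adjusted p over all 34945 probe sets named with 1 gene was under 0.05. Most of the table was nearly constant: in 37501 of 45101 probe sets (83.1%) the 8 arrays lay within 0.1 log2 of each other. Probe sets above that limit are called varying. Whether the RNA behind a nearly constant value changed cannot be told, and a second fit therefore used the 6682 varying probe sets alone. Array medians lay between 6.50 and 6.51. Lpar4 separated the genotypes at 1 of its 3 probe sets (1452424_at, 5.80 ± 0.05 in LPA4-KO and 6.52 ± 0.03 in WT, adjusted p = 0.0033). At 1434186_at (7.11 ± 0.46 and 6.43 ± 0.18) and 1439665_at (7.35 ± 0.51 and 6.87 ± 0.09) the LPA4-KO mean was the higher one, the groups overlapped and the test was not passed. The adipocyte markers Adipoq and Fabp4 stood above 99.9% of named probe sets in level, and both were nearly constant. All 6 measured epididymis markers were nearly constant, with means of 6.26 on every array.

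Lox, the lysyl oxidase itself, fell in LPA4-KO fat. At 1448228_at, its brightest probe set, the LPA4-KO arrays read 8.57, 8.86, 8.98 and 9.20 in replicates 1 to 4, and the WT arrays 10.09, 10.39, 10.39 and 10.01. The groups did not overlap, with a gap from 9.20 to 10.01 between the highest LPA4-KO and the lowest WT array. The level was 2.49-fold lower (difference -1.32 ± 0.16, adjusted p = 0.033, exact two-sided permutation p = 0.0286, the smallest that 4 against 4 arrays can give). With any 1 array left out the adjusted p was between 0.056 and 0.094, so this call needed all 8 arrays. Among the varying probe sets alone it was called in full (adjusted p = 0.0053) and with each array left out (adjusted p from 0.0048 to 0.017). In bulk tissue, fewer cells of the type that makes an RNA and less RNA per cell cannot be told apart, here and for every gene that follows.

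The other bright Lox probe set, 1416121_at, ran the same way with more spread. Its LPA4-KO arrays read 8.54, 8.82, 8.83 and 9.22, and its WT arrays 9.46, 10.08, 10.17 and 9.74. The groups again did not overlap, and the lowest WT array, replicate 1, stood near the highest LPA4-KO array, replicate 4. The difference was -1.01 ± 0.21, which did not pass over all probe sets (adjusted p = 0.090) and passed among the varying ones (adjusted p = 0.012). Both probe sets also placed LPA4-KO replicate 1 lowest and replicate 4 highest of their group. The third Lox probe set, 1437903_at, was nearly constant at 6.48 to 6.49.

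Loxl1 encodes the lysyl oxidase-like enzyme that binds elastin and fibulin-5 and is needed for elastic fibre upkeep. Probe set 1451978_at read 8.52, 8.56, 8.60 and 8.09 in LPA4-KO and 8.87, 8.83, 9.15 and 8.84 in WT mice. No LPA4-KO array reached the lowest WT array, but LPA4-KO replicate 4 and WT replicate 3 each stood well apart from their groups. The difference was -0.48 ± 0.14, a 1.40-fold lower level, which did not pass over all probe sets (adjusted p = 0.16) and passed among the varying ones (adjusted p = 0.031). There the call ended without LPA4-KO replicate 1 (adjusted p = 0.062) or 2 (adjusted p = 0.053), and without WT replicate 3 (adjusted p = 0.073) or 4 (adjusted p = 0.053). Loxl1 1436063_at and the single probe set of Loxl3, 1418269_at, whose product is a further enzyme of the family, were nearly constant at 6.81 and 6.95.

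The probe sets that Loxl2 shares with Gm21451 are given as values of the pair. At 1431004_at the LPA4-KO arrays read 7.66, 7.56, 7.52 and 7.56 and the WT arrays 7.67, 8.02, 8.17 and 7.79. Replicate 1 of each genotype nearly met, so the groups were only just apart, and the difference of -0.34 ± 0.11 did not pass in a fit of all 45101 probe sets (adjusted p = 0.22). At 1452436_at, a dim probe set, the means were 6.13 ± 0.19 and 6.64 ± 0.39, the groups overlapped and the difference of -0.51 ± 0.21 did not pass (adjusted p = 0.30).

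Among the fibulins, Fbln5 fell. It encodes fibulin-5, which ties tropoelastin to microfibrils, to lysyl oxidase-like 1 and to integrins on cells. Probe set 1416164_at read 9.70, 9.94, 9.93 and 9.73 in LPA4-KO and 10.75, 10.64, 10.88 and 10.80 in WT mice. Both groups were tight, with SDs of 0.13 and 0.10, and their nearest arrays stood at 9.94 and 10.64. Its level was 1.92-fold lower (difference -0.94 ± 0.08, adjusted p = 0.022, exact permutation p = 0.0286), the smallest adjusted p of the 15 probe sets. It kept its call without WT replicate 1 (adjusted p = 0.043) and lost it without any other single array (adjusted p from 0.052 to 0.075), while among the varying probe sets it was called with each array left out (adjusted p from 0.0048 to 0.0084). Fbln5 1446377_at was nearly constant at 6.15.

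Fbln2 encodes fibulin-2, a larger fibulin of basement membranes and elastic fibres that binds fibrillin and fibronectin. Probe set 1423407_a_at read 9.32, 9.15, 9.28 and 9.01 in LPA4-KO and 10.10, 9.67, 9.95 and 9.82 in WT mice. All WT arrays lay above all LPA4-KO arrays. The level was 1.62-fold lower (difference -0.69 ± 0.11), which did not pass over all probe sets (adjusted p = 0.058) and passed among the varying ones (adjusted p = 0.0081, and 0.012 to 0.028 with 1 array left out). Fbln2 1438375_at was nearly constant at 5.86, above only 9.01% of named probe sets in level.

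Fbln1, which encodes fibulin-1, a fibulin of basement membranes and plasma that is also found in elastic fibres, had overlapping groups at both varying probe sets. At 1451119_a_at the LPA4-KO arrays read 7.36, 7.84, 7.81 and 7.26 and the WT arrays 7.66, 7.90, 7.98 and 7.51. Replicates 2 and 3 of LPA4-KO stood above replicates 1 and 4 of WT. The difference was -0.19 ± 0.18 (adjusted p = 0.65, and 0.38 among the varying probe sets). At 1422540_at the means were 7.57 ± 0.17 and 7.66 ± 0.20, a difference of -0.09 ± 0.13 (adjusted p = 0.78). A fall of the size of that of Eln lies within 2 SE of both differences. The third probe set, 1439688_at, was nearly constant at 6.77.

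Promoter sequences from RefSeq were searched for 5 of the 10 genes: Fbln1, Fbln2, Fbln5, Fbn1 and Efemp2. The windows of Fbn1 and Efemp2 are not printed. A chromosome was left out when these were selected, so the 5 do not show which members RefSeq covers, and Lox is not among them. The sequences of Fbln5 and Fbln2, which were lower, are shown beside that of Fbln1, whose groups overlapped. Each runs from 250 bases before to 50 after a RefSeq start, 5′ to 3′ on the gene's strand, in assembly GRCm38.p6. The windows are Fbln5 at chr12:101819070-101819369 on the minus strand, Fbln2 at chr6:91212514-91212813 on the plus strand and Fbln1 at chr15:85205699-85205998 on the plus strand. Capitals mark every match, on either strand, to the letters searched.
Fbln5: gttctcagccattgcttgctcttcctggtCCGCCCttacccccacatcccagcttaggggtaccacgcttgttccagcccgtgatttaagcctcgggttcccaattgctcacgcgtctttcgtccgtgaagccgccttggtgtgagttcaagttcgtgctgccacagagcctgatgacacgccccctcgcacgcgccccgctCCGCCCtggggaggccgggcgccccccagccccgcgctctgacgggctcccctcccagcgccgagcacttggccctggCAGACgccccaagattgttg
Fbln2: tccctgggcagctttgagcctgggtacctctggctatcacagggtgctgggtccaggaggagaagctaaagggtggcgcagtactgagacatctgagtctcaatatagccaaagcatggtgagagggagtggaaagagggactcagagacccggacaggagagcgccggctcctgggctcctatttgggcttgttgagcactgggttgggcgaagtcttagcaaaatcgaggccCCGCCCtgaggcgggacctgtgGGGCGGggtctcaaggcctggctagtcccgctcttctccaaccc
Fbln1: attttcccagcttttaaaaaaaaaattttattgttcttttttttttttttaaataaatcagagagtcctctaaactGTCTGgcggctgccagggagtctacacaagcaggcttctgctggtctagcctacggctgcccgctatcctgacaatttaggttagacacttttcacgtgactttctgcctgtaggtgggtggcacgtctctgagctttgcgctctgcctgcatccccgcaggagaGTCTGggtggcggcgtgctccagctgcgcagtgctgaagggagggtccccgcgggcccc
The letters searched were TATAAA (the TATA box), GGGCGG (the GC box), TGACTCA (an AP-1 site), GGAATG (a TEAD site), CAGAC (a Smad element) and the CArG box of serum response factor, and no 2 marked matches overlap. GGGCGG occurred 2 times in the Fbln5 window, 2 times in the Fbln2 window and 0 times in the Fbln1 window, and in 35.7% of 32851 promoter windows of this length. CAGAC occurred once in Fbln5 and 2 times in Fbln1, and in 49.6% of all windows. None of the 3 windows held TATAAA (13.6% of all windows), TGACTCA (5.2%), GGAATG (14.7%) or a CArG box (1.63%). A match is a run of letters and not a measured binding site. Fbln5 and Fbln1 each have another RefSeq start, whose window is not printed. That window held GGGCGG 0 times for Fbln5 and 2 times for Fbln1, and CAGAC 2 times for each. The 2 Fbln1 windows overlap, and their CAGAC matches are the same 2 sites. Apart from CAGAC in Fbln1, these counts depend on the start chosen.

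Eln encodes elastin, the substrate of the enzymes above. Probe set 1420855_at read 7.99, 7.98, 7.94 and 7.82 in LPA4-KO and 8.15, 8.15, 8.29 and 8.12 in WT mice. The groups did not overlap, but the whole span over 8 arrays was 0.47 log2. The level was 1.19-fold lower (difference -0.25 ± 0.05), which did not pass over all probe sets (adjusted p = 0.091) and passed among the varying ones (adjusted p = 0.040). Among the varying probe sets that call held without WT replicate 1 (adjusted p = 0.046) and ended with any other array left out (adjusted p from 0.062 to 0.097) and after quantile normalization (adjusted p = 0.078). Eln 1420854_at was nearly constant at 6.78.

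**Figure D1:**
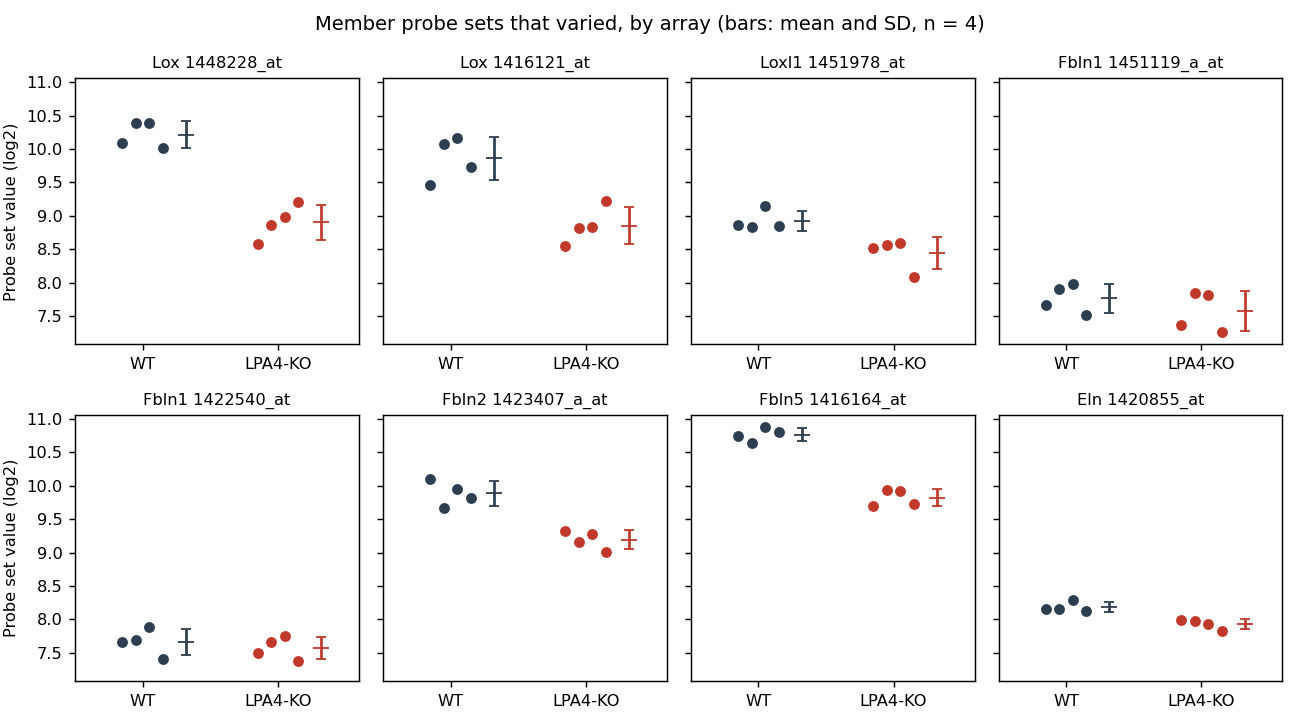
The 8 varying member probe sets by array, with the probe set value (log2) on the vertical axis, 1 point per mouse and bars for mean and SD of 4 arrays. Lox, Loxl1, Fbln2, Fbln5 and Eln show 2 groups that do not overlap, and the Fbln1 points of both genotypes share a range.

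The shares that follow describe a set chosen with earlier results of these data known, and no test of the set was made. In total 2 of 15 member probe sets passed over all probe sets, both lower, where 0.321% of the 34945 named probe sets passed and were lower. By gene, with each gene given by its brightest probe set, 2 of 7 members (Lox and Fbln5) fell and 0 rose, against 0.346% lower and 0.715% higher over 18193 genes. At an unadjusted limma p under 0.05, 5 of the 7 were lower and 0 higher, where 7.35% of all 18193 genes were lower and 9.79% higher. The median difference over the 7 genes was -0.48 and that over all genes 3.96e-05. In the fit of varying probe sets, 6 of 8 member probe sets fell (all but those of Fbln1), where 10.5% of the varying probe sets fell. By gene this was 5 of 6 (Lox, Loxl1, Fbln2, Fbln5 and Eln), against 10.9% of 4029 varying genes. Of those genes 440 fell and 373 rose, and after quantile normalization of the varying probe sets 312 fell and 500 rose. The groups did not overlap, with LPA4-KO lower, at 6 of the 8 varying member probe sets and at 15.4% of all varying probe sets. With 1 array left out, the fit of all probe sets called 1 member probe set without WT replicate 1 and 0 without any of the others. Calls over all 18193 genes fell at the same time, from 193 to 74 without WT replicate 1 and to between 6 and 14 without any of the others. The fit of varying probe sets called between 4 and 6 member probe sets with 1 array left out, and between 334 and 859 of the 4029 varying genes. The 7 nearly constant member probe sets differed by at most 0.0015 log2, and the smallest adjusted p among them was 0.105.

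Partners of these genes in elastic fibre assembly and turnover held called falls, and positive differences that did not pass. They were taken from 6 lists by known role, drawn up with earlier results of these data known. In all 56 genes had a probe set of their own, and 31 of these genes varied. Fn1 and Ctsl fell and 0 genes rose over all probe sets, and among the varying ones 10 of 31 fell and 0 rose, against 10.9% lower and 9.26% higher over varying genes. At an unadjusted limma p under 0.05, 26 of the 56 were lower and 2 higher over all probe sets, nearly constant ones included, against the 7.35% lower and 9.79% higher of all genes. Over the varying ones 20 were lower and 0 higher, against 21.5% lower and 18.4% higher of varying genes. Of the 31 varying genes, 25 had negative differences, against 2153 of all 4029 varying genes. Fn1 encodes fibronectin, on which lysyl oxidase is activated, and read 10.26, 10.50, 10.32 and 9.96 in LPA4-KO and 11.12, 11.05, 11.37 and 11.02 in WT mice (difference -0.88 ± 0.13, adjusted p = 0.048). Its groups lay apart, and its call was lost without any single array. Bmp1, the protease that releases active lysyl oxidase from its precursor, differed by -0.36 ± 0.08 (adjusted p = 0.10, and 0.028 among varying probe sets), and Postn, the periostin gene whose product helps that cleavage, by -0.33 ± 0.13 (adjusted p = 0.28). The other genes of this list (Loxl4, Tll1, Tll2 and Atp7a, the copper pump that loads the enzyme) were nearly constant.

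The 2 other varying fibulin genes were lower among the varying probe sets. Efemp1, which encodes fibulin-3, differed by -0.77 ± 0.12 (adjusted p = 0.059 over all and 0.0077 over varying probe sets). Its LPA4-KO arrays read 10.82, 11.07, 10.91 and 10.49 and its WT arrays 11.59, 11.51, 11.70 and 11.55, which do not overlap. Hmcn1, which encodes the very large fibulin-6, differed by -0.45 ± 0.10 (adjusted p = 0.10 and 0.025). Of 19 microfibril genes measured 9 varied, 7 of them negative, and 3 fell among the varying probe sets. These were Mfap5 (-0.61 ± 0.14, adjusted p = 0.11 and 0.017), a glycoprotein bound to fibrillin, Ltbp3 (-0.42 ± 0.08, adjusted p = 0.077 and 0.015), a latent TGF-beta binding protein, and Emilin2 (-0.81 ± 0.19, adjusted p = 0.11 and 0.017), a protein of the elastin and microfibril interface. Ltbp2 (0.37 ± 0.22) and Mmrn1 (0.32 ± 0.25) had positive differences that did not pass.

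Of 9 genes of fibrillar collagens, the other substrate of lysyl oxidases, and of lysyl hydroxylases, none passed over all probe sets, and Col5a1 fell among the varying ones (-0.38 ± 0.11, adjusted p = 0.17 and 0.038). The abundant Col1a2 (-0.28 ± 0.11) and Col3a1 (-0.23 ± 0.22) did not pass in either fit. In the list of elastin-degrading proteases, Ctsl, which encodes the lysosomal protease cathepsin L, read 11.69, 11.74, 11.87 and 11.81 in LPA4-KO and 12.11, 12.12, 12.28 and 12.13 in WT mice (-0.38 ± 0.05, adjusted p = 0.041). Its groups did not overlap, and its call was lost without any single array. Ctss, the cathepsin S gene, differed by -0.25 ± 0.09, the macrophage elastase gene Mmp12 by 0.37 ± 0.25 and the matrilysin gene Mmp7 by 0.42 ± 0.26, none passing. Of 9 integrin genes whose products bind fibulin-5 or fibrillin, only Itgb1, the common beta subunit, fell among the varying probe sets (-0.31 ± 0.08, adjusted p = 0.12 and 0.032). Itgav and Itga8 were nearly constant, and Itga8 was called higher without WT replicate 2 at a difference of 0.00022 log2.

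**Figure D2:**
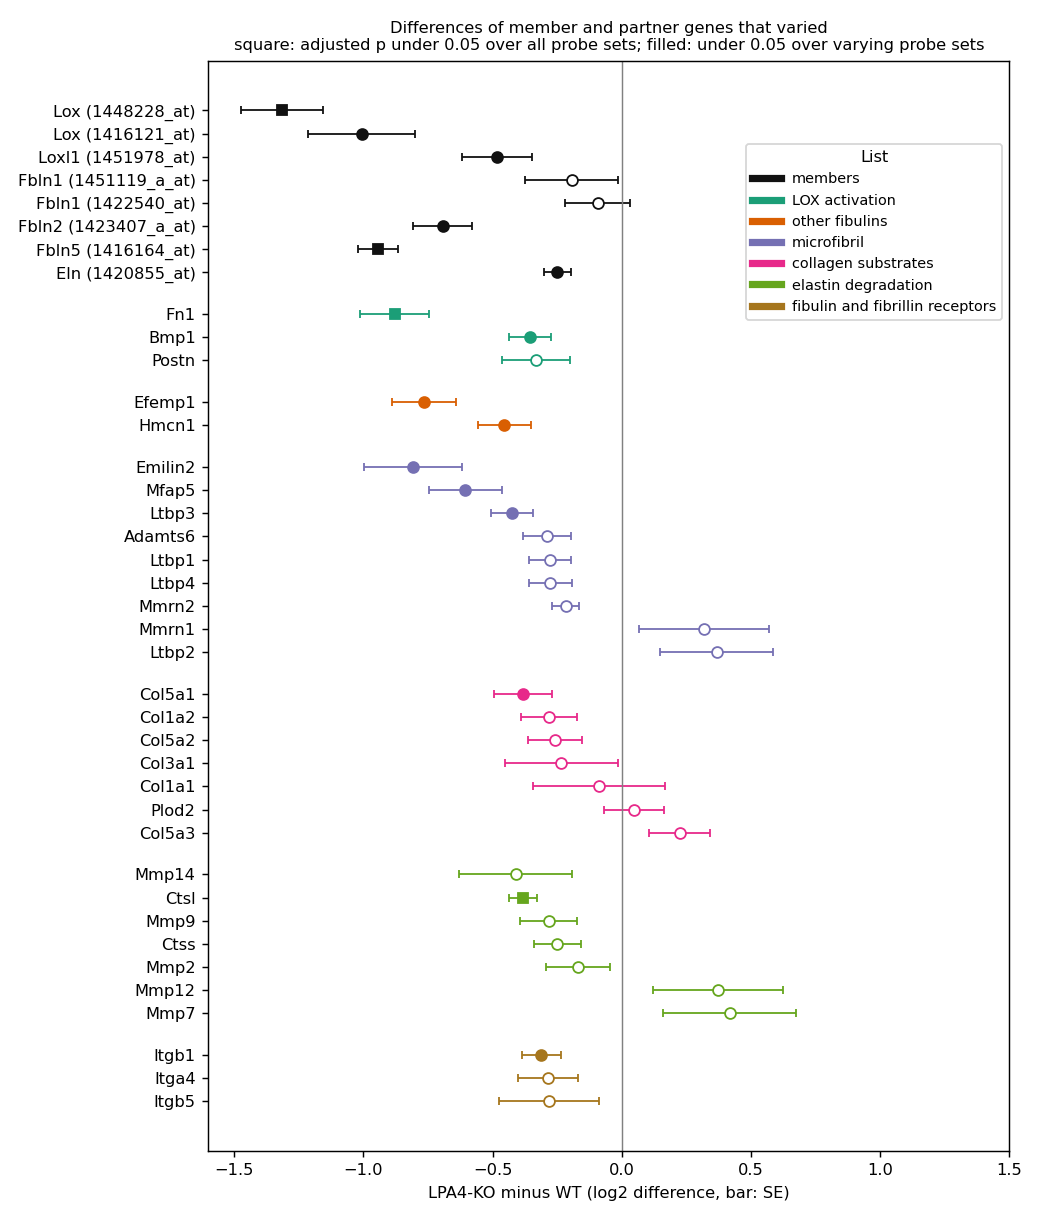
Difference between LPA4-KO and WT (log2, bar: SE) for the 8 varying member probe sets and 31 varying partner genes, by list, each from 4 against 4 arrays. Lox (-1.32) and Fbln5 (-0.94) are squares, called over all probe sets, together with Fn1 and Ctsl, and filled symbols are called over the varying probe sets alone.

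Within a genotype the members did not vary as one. After subtracting each genotype's mean, the 2 bright Lox probe sets followed each other over the 8 arrays (Pearson r = 0.90), as did the 2 varying Fbln1 probe sets (r = 0.91). Pairs of Lox with another gene mostly had lower coefficients than the other pairs, but the ranges overlapped. Pairs of different genes without Lox all had positive coefficients, from 0.08 (Fbln1 1451119_a_at with Fbln2) to 0.91 (Loxl1 1451978_at with Eln). Pairs of a Lox probe set with another gene ran from -0.71 to 0.29, and Lox 1448228_at stood at r = -0.28 with Loxl1, 0.05 with Fbln5 and -0.56 with Fbln2. These coefficients describe 8 arrays that share their scaling, and no test was made. By the same measure the 5 genes most like Lox among 4028 other varying genes were Pkp2 (r = 0.97), Cnot4 (0.96), Tnfrsf12a (0.96), Trpv2 (0.96) and Rflnb (0.96). Picking the highest of so many genes gives high values by selection. None of the 5 was called between genotypes, with differences from -0.36 ± 0.22 for Pkp2 to 0.14 ± 0.11 for Tnfrsf12a.

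Some markers of the stromal cells that make matrix were lower too. For each list below, the counts over all genes stand beside it. Of all 4029 varying genes 2153 were negative, and in the fit of varying probe sets 10.9% fell and 9.26% rose. Over all probe sets 0.346% of 18193 genes fell and 0.715% rose. Of 12 progenitor and fibroblast markers 11 were measured, 10 varied and 9 of those were negative. Dpt passed over all probe sets and 4 of the 10 (Dpt, Pdgfra, Dpp4 and Cd34) among the varying ones, while Lum (-0.08 ± 0.17), Col15a1 (0.01 ± 0.21) and Pdgfrb (-0.15 ± 0.09) did not pass in either fit. Their mean ran from 8.91 to 9.22 in LPA4-KO and from 9.33 to 9.57 in WT mice, which do not overlap, and Dpt, the dermatopontin gene, fell (-0.43 ± 0.04, adjusted p = 0.026). Pdgfra, a receptor that marks these cells, differed by -0.66 ± 0.16 (adjusted p = 0.11 over all and 0.018 over varying probe sets). All 11 mesothelial markers, of the cell sheet that covers the pad, were negative, 0 passed over all probe sets, Gpm6a, Lrrn4 and Upk3b fell among the varying ones, and their mean ran from 7.45 to 8.0 and from 7.78 to 8.68. Of 10 smooth muscle and pericyte markers 7 varied, 2 negative and 5 positive, and the range of their mean was 8.57 to 8.70 in LPA4-KO inside 8.38 to 8.86 in WT mice. In that list 1 gene fell and 1 rose among the varying probe sets. Acta2, which contractile fibroblasts also make, differed by -1.31 ± 0.21 (adjusted p = 0.057 over all and 0.0066 over varying probe sets), and Actg2, the enteric smooth muscle actin gene, by 0.74 ± 0.15 (adjusted p = 0.083 and 0.014). Myh11, which marks smooth muscle, differed by 0.20 ± 0.10 without passing. All 10 varying macrophage markers were negative, with means from 9.58 to 9.78 and from 9.72 to 10.04, and 2 fell among the varying probe sets. Of 5 varying endothelial markers 4 were negative and 0 were called, with means from 8.22 to 8.53 and from 8.51 to 8.77. Of 6 varying adipocyte markers 5 were positive, with means from 11.08 to 11.20 and from 10.73 to 11.15, and 1 rose among the varying probe sets. In these 3 lists 0 passed over all probe sets. The mean of the 6 varying member genes ran from 8.52 to 8.76 in LPA4-KO and from 9.18 to 9.44 in WT mice.

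**Figure D3:**
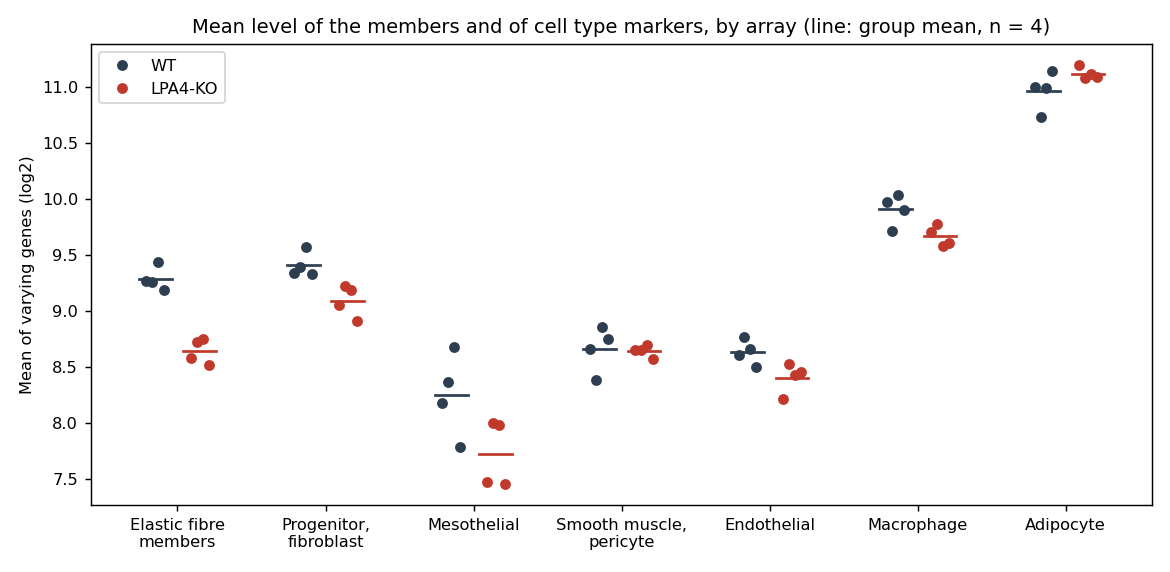
Mean log2 level of the 6 varying member genes and of the varying markers of 6 cell types, 1 point per array, with lines at group means of 4 arrays. The LPA4-KO points lie below all WT points for the members and for progenitors and fibroblasts, and the groups overlap for mesothelial, smooth muscle, endothelial, macrophage and adipocyte markers.

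Set against the markers, the members differed in sign. Each relative difference is the deposited difference less that of the marker mean, so its sign only shows which fall was larger. The progenitor and fibroblast mean itself differed by -0.32. With the mean of the 10 varying progenitor and fibroblast markers subtracted on each array, a step chosen after the values were seen, Lox 1448228_at stood at -0.48, -0.36, -0.21 and 0.29 in LPA4-KO and at 0.74, 0.99, 0.82 and 0.68 in WT mice, a relative difference of -1.0 (exact permutation p = 0.0286). Its groups still lay apart. Fbln5 kept a relative difference of -0.63 and Fbln2 one of -0.38, both without overlap (exact permutation p = 0.0286 each). Lox 1416121_at (-0.69) and Loxl1 (-0.17) kept their direction with overlapping groups (exact permutation p = 0.057 each). Eln turned to 0.07 and Fbln1 1451119_a_at to 0.12 with overlapping groups, and Fbln1 1422540_at to 0.22 with LPA4-KO above WT on every array (exact permutation p = 0.0286). The smooth muscle and pericyte mean itself differed by -0.02, with Acta2 lower and Actg2 higher, so subtracting it could move no member by more than that and gives no further comparison. Relative to the mesothelial mean, which differed by -0.53, Lox 1448228_at was at -0.79 and Fbln5 at -0.42 with overlapping groups (exact permutation p = 0.057 and 0.114), Fbln2 was at -0.17 (exact permutation p = 0.514), and Loxl1 (0.04), Eln (0.28) and the Fbln1 probe sets (0.33 and 0.43, both with LPA4-KO above WT on every array) turned positive. Both bright Lox probe sets, Fbln5 and Fbln2 had negative values relative to the progenitor and fibroblast mean and to the mesothelial mean, and relative to the mesothelial mean the groups overlapped for each of them. The part of cell composition in these differences was not tested.

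**Figure D4:**
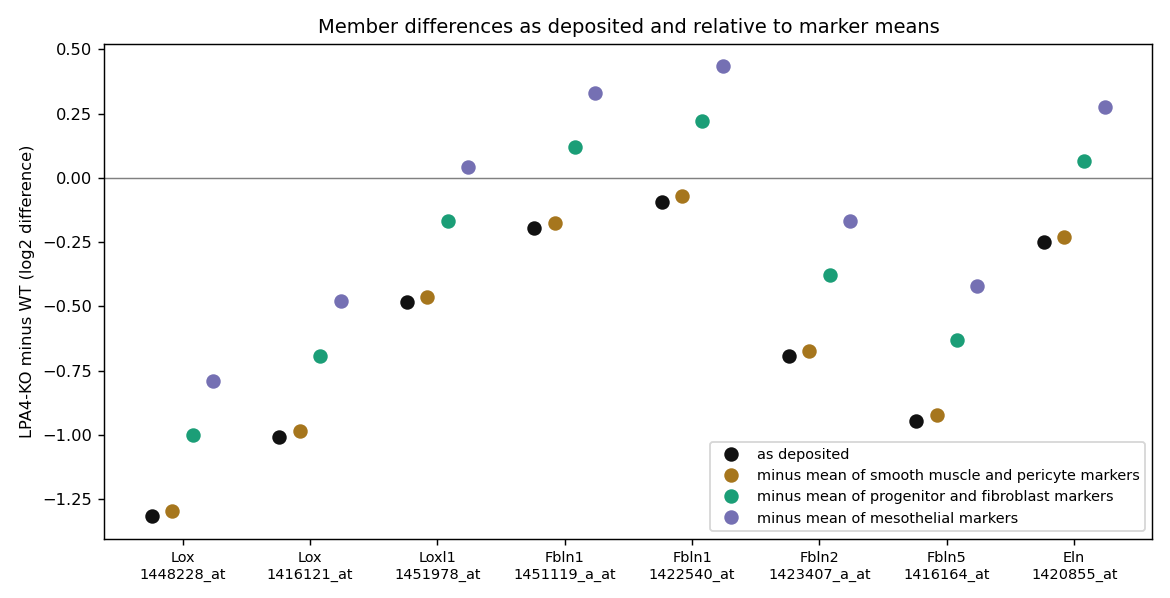
Difference between LPA4-KO and WT (log2) of each varying member probe set as deposited and with the array's mean of smooth muscle, of progenitor and fibroblast or of mesothelial markers subtracted, from 4 against 4 arrays. Lox, Fbln2 and Fbln5 stay below 0, subtraction of the smooth muscle mean moves each value by 0.02, and Eln and Fbln1 cross 0 when progenitor or mesothelial markers are subtracted.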

How the data were processed

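Total RNA of each fat pad was labelled with biotin through a 3′ in vitro transcription kit and measured on Affymetrix arrays, per the labels' protocols. The authors deposited 1 log2 value per probe set and array. R 2.14.0 is named in the submitters' processing notes. How background, normalization and probe summary were handled, and which logarithm was taken, is not given in the sources used here; log2 was inferred from the range of the values. Samples were grouped by title, which calls them biological replicates.

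Of 45101 probe sets, the platform annotation gave 34945 1 gene symbol and 932 several, 9160 had none and 64 were controls. LPA4-KO was set against WT by limma 3.58.1 (R 4.3.3; lmFit, eBayes with a variance trend, no block), with Benjamini-Hochberg adjustment over all probe sets named with 1 gene and a call under 0.05. A gene was represented by its brightest probe set on average. Single probe sets also had an exact permutation test, two-sided, over 70 arrangements. The number of arrays limits the precision. Alternatives were other feature sets, scalings, variance models, array weights, a block and each array left out.

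The members, lists and alternatives were chosen with earlier results of these data known. Genes named are all members, and per partner list the called genes, the 2 with the smallest p and the 2 brightest, with Ltbp2, Mmrn1, Mmp7, Mmp12, Pdgfra, Dpp4, Cd34, Lum, Col15a1, Pdgfrb, Gpm6a, Lrrn4, Upk3b, Acta2, Actg2, Myh11, Adipoq and Fabp4 added after their values were seen; of nearly constant genes, only some are given values. Promoter sequences are from RefSeq (GRCm38.p6).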

Additional observations from a re-analysis of the deposited data

Results flagged for a closer look

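In Loxl1 1451978_at, LPA4-KO replicate 4 stood at 8.09, well below the nearest array of its group at 8.52, and WT replicate 3 at 9.15, above the next WT array at 8.87. WT replicate 3 was also high for Eln 1420855_at, at 8.29 with the next at 8.15. These gaps exceeded Dixon's limit for 4 arrays, which chance passes in about 1 of 20 groups, and 26 groups were looked at. The 2 probe sets shared by Gm21451 and Loxl2 lie outside the gene comparisons. Their differences were -0.34 at 1431004_at and -0.51 at 1452436_at.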

How the results depend on the processing

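All 222 differences of the 8 varying member probe sets under the other fits and scalings were negative. Many of these are the same value again, since a change of feature set, variance model or block left the difference as it was. Their size changed only with scaling, array weights or a left-out array, and the number of calls depended on the setting. Over all probe sets limma called 2 member probe sets, 2 member genes and 2 partner genes. In the fit of varying probe sets these counts were 6, 5 and 10, after quantile normalization of those probe sets 5, 4 and 7, and after their median centring 5, 4 and 10 (358 lower and 463 higher over varying genes). That centring, the block and left-out arrays within the varying probe sets, and the marker subtractions were chosen after seeing the data. Over all probe sets quantile normalization gave 11, 6 and 34 calls and median centring 13, 6 and 40. The added calls include 5 and 7 nearly constant member probe sets called higher, since these scalings shift constant values together; of all genes, 63 lower and 130 higher became 684 and 10044 under quantile normalization and 776 and 13215 under median centring. Robust estimation called 0 partner genes (24 lower and 2 higher at an unadjusted p under 0.05, with 1392 and 1905 of all 18193 genes). With 1 array left out, the fits over all or over varying probe sets called between 0 and 6 member probe sets, between 0 and 5 member genes and between 0 and 12 partner genes. Fbln2 was also called with 1 probe set per gene, above the median level and with array weights. The mean of all probe sets of a gene, nearly constant ones included, moved the median difference over member genes to -0.24.

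Both genotypes carry replicate numbers 1 to 4. Same-numbered arrays had correlations of 0.09, 0.08, 0.27 and -0.20 after subtraction of genotype means, and 2 of 4 LPA4-KO arrays were most like the WT array of their own number. These values do not settle whether the numbers pair mice, and the main fit did not pair them. With the replicate number as a block, limma called 0 member probe sets, 0 member genes and 0 partner genes over all probe sets (10, 6 and 19 lower at an unadjusted p under 0.05), where it called 1 of all 18193 genes (1336 lower and 1662 higher unadjusted). Over the varying ones it called 5, 4 and 11, and 383 lower and 259 higher of 4029 genes. With the block, the SE of the Fbln1 1451119_a_at difference was 0.05 over all and 0.08 over varying probe sets. It did not pass in either limma fit (adjusted p = 0.24 and 0.11).

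Relative to progenitor and fibroblast markers, Fbln1 turned to 0.12 and 0.22 and Eln to 0.066. Relative to mesothelial markers, Loxl1 turned to 0.042, Fbln1 to 0.33 and 0.43 and Eln to 0.28. These values are the deposited differences less those of the marker means, -0.32 for progenitor and fibroblast and -0.53 for mesothelial markers. Why the marker means differed was not tested. Signal above background was not measured for any probe set. This limits most what can be said of the dimmer ones, such as Loxl3 1418269_at and the shared Loxl2 probe set 1452436_at.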
